A study of Mus musculus with 4 samples.

Results

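The transcripts of 10 Kruppel-like factor (KLF) genes were measured in cultures of mouse prefrontal cortex (PFC) with and without FGF2. The genes, Klf2, Klf3, Klf4, Klf5, Klf6, Klf7, Klf9, Klf10, Klf13 and Klf15, were taken by name from the 55421 genes of the count tables, after matching the Ensembl identifiers to gene symbols, and all 10 were present and passed the filter on low counts. The cells came from the PFC of wild-type C57BL/6 pups at postnatal day 0, freed from the meninges and blood vessels. They were dissociated and kept for 10 days in neurobasal medium with the supplements B27 and GlutaMAX, in both groups. The treated cultures received fibroblast growth factor 2 (FGF2), a growth factor for neural progenitors and glia, at 5 ng/mL, and the others received no FGF2. Each group has 2 libraries, made from total RNA of unsorted cells, and the comparison asks how FGF2 changes the transcripts of a mouse PFC culture.

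KLFs are transcription factors with zinc fingers at the C-terminal end that bind GC-rich and CACCC-type DNA elements, as do the closely related SP factors. In neurons they are known as regulators of neurite growth, with Klf6 and Klf7 promoting axon growth and Klf4 and Klf9 restraining it. Other members act as early response genes, as effectors of steroid and thyroid hormones, or as repressors that recruit corepressor complexes, and several are used in both neurons and glia.

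The counts on genes totalled 9166432 and 9907613 in the libraries with FGF2 and 10460236 and 10799886 in those without. Levels are CPM, counts scaled to the same depth in each library with TMM factors, and 3 counts, the most that a count of 0 allows, correspond to between 0.277 and 0.331 CPM depending on the library, which covers counting error only. No source says whether replicate libraries stem from separate cultures, and the study's methods speak of technical replicates, so n counts libraries and the p-values may leave out the variation between cultures. The cultures were mixed, with neuronal, astrocyte and oligodendrocyte lineage transcripts in every library, so that fewer cells of a type and less RNA per cell cannot be told apart.

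Among the KLF genes, Klf10, Klf6 and Klf3 were higher in the cultures with FGF2, with log2 fold changes of 1.10, 0.95 and 0.72. None of the other 7 passed an adjusted p-value of 0.05 in the quasi-likelihood test of edgeR, adjusted over 17144 genes by the Benjamini-Hochberg method. Thus 3 of the 10 genes rose, where 20.7% of all tested genes did, and 0 fell, where 19.9% of all tested genes did. In all, 40.5% of the tested genes passed in either direction. At an unadjusted p below 0.05 edgeR counted 6 of the 10 genes, 4 higher and 2 lower, and DESeq2 and limma-voom each called 3 higher and 0 lower after adjustment. Both FGF2 libraries lay above both others for 4 members, where 33.6% of the tested genes did so, and below both others for 4 members, where 33.4% did so. With 10 genes, shares this close to the background are no result about the family as a whole. The median log2 fold change of the 10 genes was 0.09, and that of all tested genes was -0.0008.

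**Figure D1:**
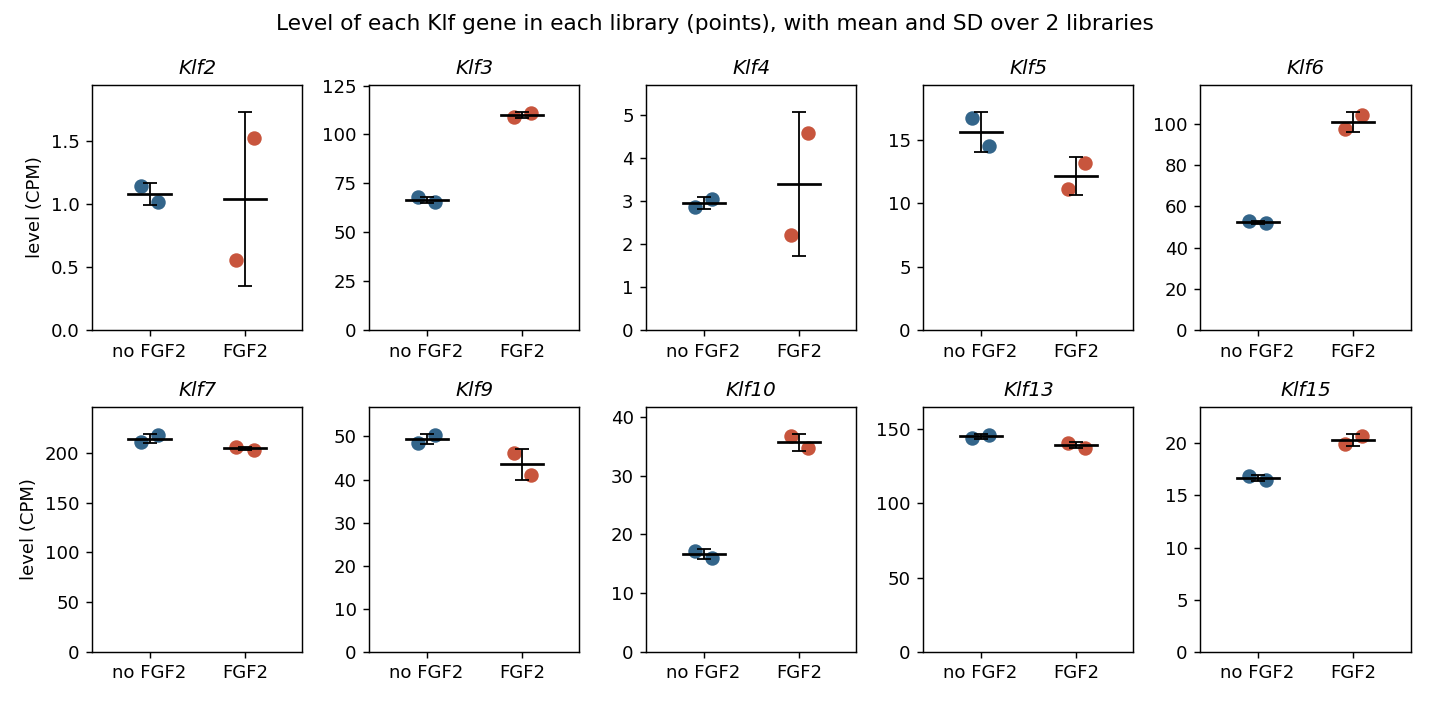
Level of each KLF gene in CPM (vertical axis, starting at 0 and scaled for each gene) in each library without FGF2 (blue points) and with FGF2 (red points), with the mean (line) and SD (bar) over 2 libraries. Klf3, Klf6 and Klf10 show a wide gap between the groups, whereas the points of Klf2 and Klf4 overlap.

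Klf6 and Klf7 are the members known for promoting axon growth, and they differed in their response. Klf6 (ENSMUSG00000000078, mm10 chr13:5861482-5870394, plus strand), also an early response gene, stood at 97.5 and 104.4 CPM with FGF2 and at 52.9 and 51.9 CPM without. Both FGF2 libraries were well above both others. The means were 101 ± 4.87 (SD, n = 2) and 52.4 ± 0.713 CPM, a 1.93-fold difference with a log2 fold change of 0.95 (SE 0.08, edgeR adjusted p = 2.7e-34). Klf7 (ENSMUSG00000025959, mm10 chr1:64029447-64122282, minus strand), which is needed for axon projection in the developing nervous system, stood at 205.5 and 203.4 CPM with FGF2 and at 211.0 and 217.7 CPM without. The libraries with FGF2 were lower by a small margin and the groups did not overlap. Its log2 fold change was -0.07 (SE 0.05, 95% interval -0.16 to 0.03, edgeR adjusted p = 0.269). A further gene on the opposite strand, Gm26649, shares 3196 of the 8131 exonic bases of Klf7. It has no entry in the count tables and so could not be analysed here.

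Klf9, Klf13 and Klf15 are expressed in mature neural tissue, and Klf9 and Klf15 are known targets of glucocorticoids, Klf9 also of thyroid hormone. Klf9 (ENSMUSG00000033863, mm10 chr19:23141226-23168134, plus strand), which restrains neurite growth, stood at 46.1 and 41.0 CPM with FGF2 and at 48.5 and 50.2 CPM without. The groups did not overlap, but replicate 1 with FGF2 lay nearer to the libraries without FGF2 than to its own replicate. The log2 fold change was -0.18 (SE 0.09, 95% interval -0.37 to -0.004, edgeR unadjusted p = 4.51e-02, adjusted p = 0.0982). With each library left out in turn it lay between -0.27 and -0.10, and -0.27 was the value without that library. Klf13 (ENSMUSG00000052040, mm10 chr7:63886351-63938915, minus strand), the closest relative of Klf9, stood at 140.7 and 137.8 CPM with FGF2 and at 144.3 and 146.5 CPM without. Its libraries with FGF2 were slightly lower, with a log2 fold change of -0.06 (SE 0.06, 95% interval -0.17 to 0.05, edgeR adjusted p = 0.41). Klf15 (ENSMUSG00000030087, mm10 chr6:90462576-90475238, plus strand), a regulator of amino acid and glucose metabolism, stood at 19.9 and 20.7 CPM with FGF2 and at 16.8 and 16.4 CPM without. Here the libraries with FGF2 were the higher ones. The log2 fold change was 0.29 (SE 0.14, 95% interval 0.02 to 0.57), and with an unadjusted p of 3.87e-02 and an adjusted p of 0.0865 in edgeR it did not pass.

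Klf3 (ENSMUSG00000029178, mm10 chr5:64803388-64832901, plus strand) is a repressor that acts through the corepressor CtBP. It stood at 108.8 and 110.9 CPM with FGF2 and at 67.8 and 65.6 CPM without. The spread within each group was small beside the gap between them. The means of 109.9 ± 1.52 and 66.7 ± 1.55 CPM (SD, n = 2) differed 1.65-fold, with a log2 fold change of 0.72 (SE 0.07, edgeR adjusted p = 5.4e-23). The antisense gene Gm20033 covers 3.59% of the exonic bases of Klf3 and had 8 or 9 counts in each library. Klf10 (ENSMUSG00000037465, mm10 chr15:38291463-38300706, minus strand), known as a TGF-beta inducible early gene, showed the largest change of the 10 genes. It stood at 36.7 and 34.7 CPM with FGF2 and at 17.2 and 16.0 CPM without. Both FGF2 libraries were far above both others. The means of 35.7 ± 1.43 and 16.6 ± 0.882 CPM (SD, n = 2) differed 2.15-fold, with a log2 fold change of 1.10 (SE 0.12, edgeR adjusted p = 6.3e-18). Among all tested genes, ordered by log2 fold change, Klf3 lay at the percentile 90.5 and Klf6 at 93.6, and Klf10 lay above both.

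Klf2, Klf4 and Klf5 maintain pluripotency in embryonic stem cells, and outside the nervous system Klf2 marks endothelium and Klf4 and Klf5 mark epithelia. Klf2 and Klf4 were low here, and Klf5 lay above both. Klf2 (ENSMUSG00000055148, mm10 chr8:72319033-72321656, plus strand) had 5 and 15 counts with FGF2 and 12 and 11 counts without, or 0.551 and 1.53 CPM against 1.14 and 1.02 CPM. Klf4 (ENSMUSG00000003032, mm10 chr4:55527143-55532466, minus strand), which restrains axon growth in neurons, had 20 and 45 counts with FGF2 and 30 and 33 counts without, or 2.20 and 4.58 CPM against 2.86 and 3.05 CPM. In both genes replicate 1 with FGF2 was the lowest and replicate 2 with FGF2 the highest of all libraries, so the groups overlapped. The log2 fold changes were -0.03 (SE 0.58, 95% interval -1.17 to 1.10) for Klf2 and 0.21 (SE 0.34, 95% interval -0.46 to 0.88) for Klf4, with edgeR adjusted p-values of 0.972 and 0.671. Without replicate 1 with FGF2 they were 0.49 and 0.63, and without replicate 2 with FGF2 they were -0.96 and -0.42, so no direction can be given at this depth. Klf5 (ENSMUSG00000005148, mm10 chr14:99298691-99315036, plus strand) had 101 and 130 counts with FGF2 and 176 and 157 counts without, or 11.1 and 13.2 CPM against 16.8 and 14.5 CPM. The groups did not overlap, and the log2 fold change was -0.36 (SE 0.16, 95% interval -0.67 to -0.04, edgeR unadjusted p = 2.74e-02, adjusted p = 0.0644). With each library left out in turn it lay between -0.49 and -0.24, and -0.49 was the value without replicate 2 with FGF2.

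Markers of endothelium and epithelium were scarce in the same libraries. The endothelial list (8 genes) summed to 9.92 and 7.83 CPM with FGF2 and to 4.95 and 8.50 CPM without, with its defining genes Cldn5 and Tie1 at 0 counts in every library. Pecam1, likewise an endothelial marker, was counted 21 and 17 times in the FGF2 libraries against 19 and 29 times in the others, and was not called (log2 fold change -0.16). These 3 genes were named after their values were seen. Of its 3 tested genes 1 rose and 1 fell, with the VEGF receptor genes Flt1 at 4.70 CPM with FGF2 and 0.701 CPM without, and Kdr at 1.68 and 3.27 CPM. Kdr lost its edgeR call without replicate 1 with FGF2 (log2 fold change -0.69) and without replicate 2 without FGF2 (-0.44), and with all 4 libraries it was not called with the replicate block (edgeR adjusted p = 5.64e-02), without the expression filter, by limma-voom or by DESeq2. The epithelial and choroid plexus list (6 genes) summed to 1.32 and 2.03 CPM with FGF2 and to 3.05 and 2.96 CPM without. Its 1 tested gene, the choroid plexus gene Ttr, was lower with FGF2, at 0.305 CPM against 1.27 CPM, a call that was lost without replicate 1 with FGF2 and without either replicate without FGF2 (log2 fold changes -1.04, -1.65 and -2.23), and Kl was at 0.475 and 0.801 CPM.

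The more abundant markers moved with the groups. The 7 astrocyte markers summed to 12433 and 12315 CPM with FGF2 and to 7519 and 7464 CPM without, and all 7 rose, among them Gfap with a log2 fold change of 1.06 and Slc1a3 with 0.48. Of 9 oligodendrocyte lineage markers 8 were tested and all 8 rose, with sums of 1584 and 1604 CPM against 491 and 505 CPM and with a log2 fold change of 2.18 for the myelin gene Mbp. The 6 neuronal markers all fell, summing to 2669 and 2706 CPM against 3712 and 3688 CPM, with log2 fold changes of -0.32 for Map2 and -0.47 for Stmn2. Of 6 proliferation markers 5 fell, with sums of 192 and 195 CPM against 257 and 254 CPM, Top2a at -0.57 on the log2 scale and Mki67, which did not pass, at -0.10. Without replicate 1 with FGF2, 3 of the 6 passed as lower. Microglial and macrophage markers were low, at 18.7 and 22.3 CPM against 8.38 and 9.79 CPM over 9 genes, of which 5 were tested and 4 rose, with log2 fold changes of 1.43 for Csf1r and 0.84 for C1qb, and the C1qb call was lost when any library was left out (0.71 to 0.99). Of this list 2 genes rose without replicate 2 with FGF2 and without either replicate without FGF2. The fibroblast and mural list, from which 3 genes rose and 2 fell of 7 tested, summed to 115 and 113 CPM against 84.4 and 85.0 CPM, most of it from Cspg4 and Pdgfrb, with log2 fold changes of 0.56 and 0.73. The fibroblast collagen genes Col1a1 and Col1a2, named after their values were seen, were the 2 that fell, with log2 fold changes of -2.18 and -1.73, against the direction of the sum. Cspg4 stands in the oligodendrocyte lineage list as well. The rises of Klf3, Klf6 and Klf10 therefore went with more astrocyte and oligodendrocyte lineage RNA and less neuronal RNA in the same libraries, and the part of this in the result was not tested.

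The levels of the members were ordered per length, as CPM per kilobase (kb) of the merged exons of each gene. Without FGF2 the order was Klf7 at 26.4, Klf13 at 19.3, Klf6 at 11.9, Klf9 at 10.3, Klf15 at 5.96, Klf3 at 5.93, Klf10 at 3.97, Klf5 at 3.00, Klf4 at 0.968 and Klf2 at 0.584 CPM per kb. Of these neighbours only Klf15 and Klf3 overlapped between libraries. With FGF2 the order was Klf7 at 25.1, Klf6 at 23.0, Klf13 at 18.5, Klf3 at 9.77, Klf9 at 9.04, Klf10 at 8.54, Klf15 at 7.29, Klf5 at 2.34, Klf4 at 1.11 and Klf2 at 0.562 CPM per kb, and the libraries overlapped between Klf9 and Klf10 and between Klf4 and Klf2. Klf7 was thus the highest and Klf2 the lowest in both groups, while Klf6 stood above Klf13 with FGF2 and below it without. The order depends on the length that is used, and with the longest transcript of each gene 14 of the 20 positions were kept. Klf3, whose merged exons span 11243 bases but whose longest transcript has 5221, then stood at 12.8 CPM per kb without FGF2, above Klf6 at 12.4.

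Summed over the 10 genes, the level was 104.5 and 106.1 CPM per kb with FGF2 and 88.2 and 88.4 CPM per kb without. The make-up of this sum changed with the culture. Klf6 held 21.8% ± 0.83 of it with FGF2 and 13.5% ± 0.20 without (SD, n = 2), Klf10 8.11% ± 0.41 and 4.50% ± 0.25, and Klf3 9.28% ± 0.032 and 6.72% ± 0.16. Klf7 held 23.9% ± 0.43 with FGF2 and 29.9% ± 0.62 without, Klf13 17.6% and 21.9%, Klf9 8.59% and 11.6%, and Klf15 6.92% and 6.75%. Shares add up to a whole, so a lower share of Klf7 or Klf13 is no lower level. Set against each other, Klf6 and Klf7, which promote axon growth, stood to Klf4 and Klf9, which restrain it, at ratios of 4.62 and 4.87 with FGF2 and 3.45 and 3.38 without, in CPM per kb. The ratio of Klf6 to Klf9 was 2.32 and 2.79 against 1.20 and 1.13, whereas that of Klf7 to Klf9 was 2.64 and 2.94 against 2.57 and 2.57. The ratios are descriptions of mixed cultures and do not refer to neurons alone.

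**Figure D2:**
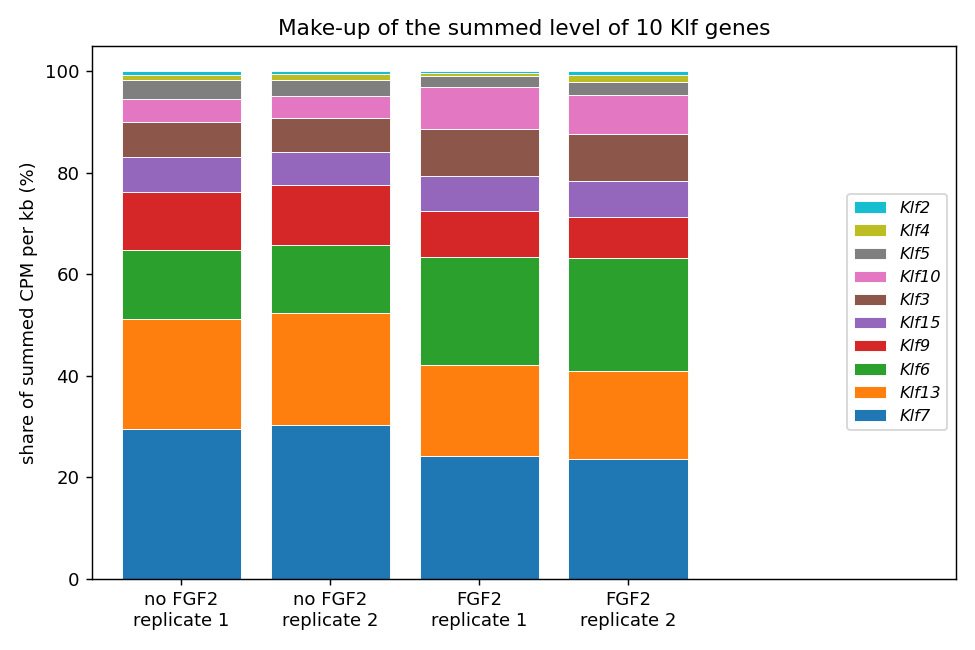
Share of each gene (colours) in the summed CPM per kb of the 10 KLF genes (vertical axis, percent) in each of the 4 libraries (bars). The Klf6, Klf3 and Klf10 segments are wider in both libraries with FGF2, with Klf6 at 21.8% on average against 13.5%, and the Klf7 and Klf13 segments are narrower.

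Of the 7 other KLF genes listed, 4 were tested and all 4 passed in edgeR, 1 higher and 3 lower. Over all tested genes 40.5% passed, 20.7% higher and 19.9% lower, and 4 genes are too few for a result about this group. Klf11, a relative of Klf10 that is also induced by TGF-beta, was higher with FGF2, at 23.8 and 23.9 CPM against 17.1 and 16.2 CPM (log2 fold change 0.52, SE 0.14, adjusted p = 5.4e-04). Klf8 and Klf12, which share the CtBP-binding repressor type with Klf3, moved the other way, Klf8 with 15.2 and 13.3 CPM against 22.4 and 19.8 CPM (log2 fold change -0.56, adjusted p = 4.2e-04) and Klf12 with 147 and 141 CPM against 166 and 159 CPM (-0.17, adjusted p = 0.00542). Klf16, of the Klf9 and Klf13 group, was lower at 10.5 and 9.86 CPM against 15.9 and 12.7 CPM (-0.49, adjusted p = 0.0141). Without replicate 2 with FGF2 Klf12 and Klf16 did not pass (-0.14 and -0.45), nor did they without replicate 1 without FGF2 (-0.15 and -0.32), and DESeq2 called 0 of the 4 in either direction. Klf1, an erythroid factor, had 1 to 5 counts in a library and Klf14 1 to 7, and Klf17 had 0 counts in all libraries. These 3 were not tested.

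The SP factors bind the same GC-rich elements. Of the 9 SP genes 7 were tested, 3 higher, 3 lower and 1 not called, beside 20.7% higher and 19.9% lower over all tested genes. Sp1, expressed in most cell types, rose from 95.6 and 92.6 CPM without FGF2 to 129 and 134 CPM with it (log2 fold change 0.48, SE 0.06, edgeR adjusted p = 2.6e-13). Sp3 and Sp4 were higher by 0.21 and 0.20 on the log2 scale, but these calls were lost with GC and length offsets (0.04 and 0.05). Sp3 lost its call without replicate 2 with FGF2 (0.16) and without each replicate without FGF2 (0.22 and 0.18), and Sp4 without each replicate with FGF2 (0.18 and 0.22) and without replicate 1 without FGF2 (0.08). Sp2 was at 0.03 (adjusted p = 0.886). Sp7, Sp8 and Sp9 were lower with FGF2. Sp7, the bone cell factor osterix, stood at 5.18 and 5.80 CPM against 13.2 and 11.7 CPM (log2 fold change -1.18, edgeR adjusted p = 1.2e-07), and Sp8 and Sp9, factors of interneuron development, changed by -0.39 and -0.49. DESeq2 called neither Sp8 nor Sp9 (adjusted p = 7.78e-02 and 7.35e-02). The neuronal markers were lower in the same libraries, and the part of this in the falls of Sp8 and Sp9 was not tested. Sp5 and Sp6 had 0 to 3 counts in a library and were not tested. The counting kept the strands apart, since of the genes almost wholly covered by exons of another gene 4 of 652 had a count where that gene was on the same strand, against 154 of 457 where it was on the opposite strand.

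**Figure D3:**
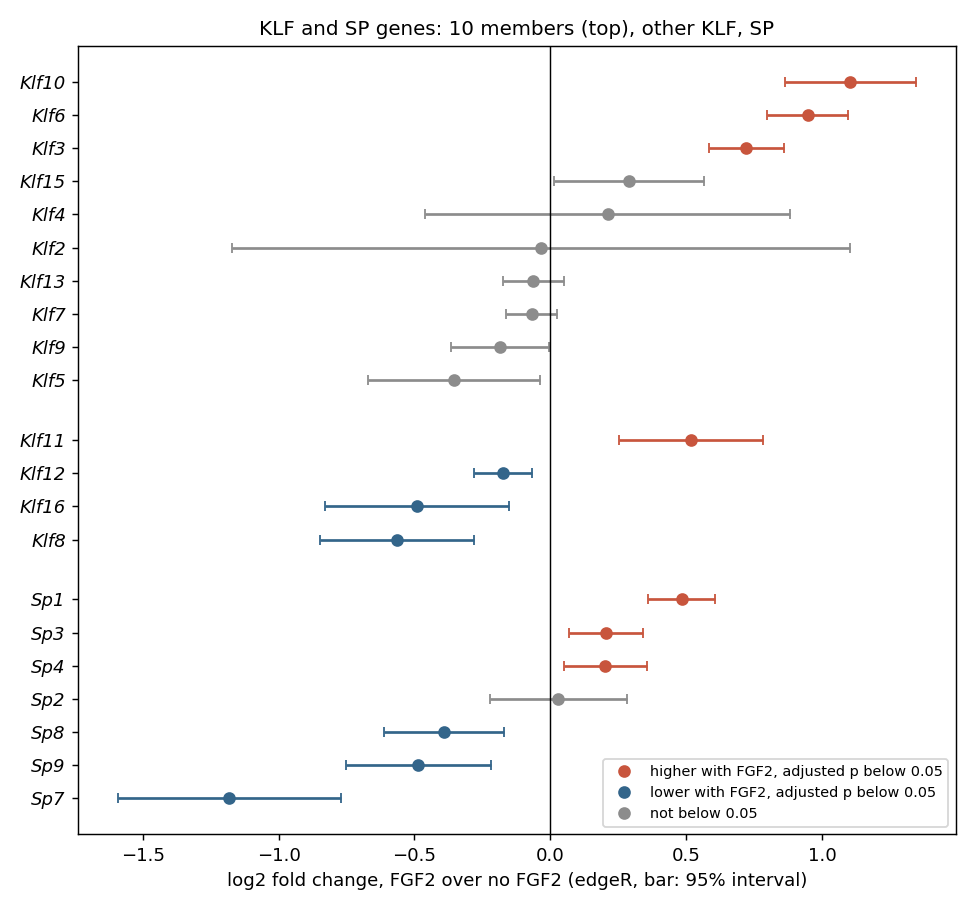
Log2 fold change between cultures with and without FGF2 (horizontal axis) for the 10 KLF genes (top), the 4 other KLF genes (middle) and the 7 SP genes (bottom) that were tested, with 95% intervals from edgeR as bars. Red points passed as higher and blue points as lower at an adjusted p of 0.05. The bars of Klf10, Klf6 and Klf3 lie clear of 0, whereas those of Klf2 and Klf4 are wide.

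Stretches just before the transcription start are shown for Klf6 and Klf3, which rose, and for Klf9, which did not, because KLF and SP factors bind GC and CACCC boxes and KLF genes are known to regulate one another. They are from RefSeq (GRCm38.p6), 5′ to 3′ on the strand of the gene, and capitals mark the GC box (GGGCGG) and the CACCC box (CACCC) on either strand, which can overlap.
Klf6 (chr13:5861239-5861481, plus strand): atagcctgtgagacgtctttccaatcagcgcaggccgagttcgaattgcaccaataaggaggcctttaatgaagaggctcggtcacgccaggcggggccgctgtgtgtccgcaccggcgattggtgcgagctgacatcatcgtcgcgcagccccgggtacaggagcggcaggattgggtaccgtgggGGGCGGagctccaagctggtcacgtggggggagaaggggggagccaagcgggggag
Klf3 (chr5:64803271-64803387, plus strand): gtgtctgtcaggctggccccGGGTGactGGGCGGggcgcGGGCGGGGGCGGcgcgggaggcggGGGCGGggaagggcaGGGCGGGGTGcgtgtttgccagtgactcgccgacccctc
Klf9 (chr19:23140976-23141225, plus strand): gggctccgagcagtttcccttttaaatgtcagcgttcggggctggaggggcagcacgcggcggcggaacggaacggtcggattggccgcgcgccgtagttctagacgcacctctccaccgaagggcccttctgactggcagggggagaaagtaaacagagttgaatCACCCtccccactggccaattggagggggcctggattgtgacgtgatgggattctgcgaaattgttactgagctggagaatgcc
Each stretch was cut where the RefSeq or the GENCODE gene begins, whichever comes first, so the lengths differ. The stretch of Klf6 (243 bases) holds 1 GC box and 0 CACCC boxes. That of Klf3 (117 bases) holds 5 GC boxes and 2 CACCC boxes, and that of Klf9 (250 bases) 0 GC boxes and 1 CACCC box.

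In the full windows of 300 bases, 250 before and 50 after the RefSeq start, 8 members had an entry, without Klf5 and Klf10. Of the 3 genes that rose only Klf3 and Klf6 are therefore described. The gene places given above are from GENCODE, and its starts can differ. The window of Klf7 (chr1:64121340-64121639) lies inside the GENCODE gene. The GENCODE start of Klf3 (64803388) lies in the first part of its window (chr5:64803271-64803570). The counts of these 2 windows are thus not all upstream by GENCODE. A GC box was present in 7 of the 8, where 35.7% of 32851 windows have one, and a CACCC box in 6 of 8, where 57.5% do. The counts ranged from 6 GC boxes and 5 CACCC boxes at Klf3 to 0 and 1 at Klf9, and Klf6 had 1 and 0. Among the other members with a window, none of which passed, Klf4 had 4 GC boxes, Klf13 3, Klf2 2, and Klf7 and Klf15 1 each. Klf9, whose stretch is shown, was thus the only member window without a GC box. GC boxes were found in genes that rose and in genes that did not. A CCAAT box (CCAAT) was found in 4 of 8 windows against 37.4% of all, with 4 copies at Klf6 and 3 at Klf9, the core of a CRE (TGACG) in 6 of 8 against 20.8%, an AP-1 site (TGANTCA) in 1 of 8 against 7.81%, at Klf9, and a TATA box (TATAAA) in 0 of 8 against 13.6%. All were searched on both strands. The member windows had a GC content of 58.3% to 76.7% against a median of 52.7%, which bears on the frequency of GC-rich letters. The windows of Klf6 and Klf3, which both rose, thus differ in these letters, and the matches are descriptions of sequence only.

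Genes that act on or with KLFs were read from further lists, beside 20.7% higher and 19.9% lower calls over all tested genes. Of 14 cofactor and turnover genes 5 rose, 3 fell and 6 did not pass, with a median log2 fold change of 0.01. Kat2b, an acetyltransferase, was higher by 0.58 and Sin3a, the scaffold of the corepressor complex used by Klf9, Klf10 and Klf13, by 0.44 on the log2 scale. Fbxw7, a ubiquitin ligase subunit for KLFs, and the histone deacetylase Hdac2 were lower (-0.32 and -0.29). The corepressor genes of Klf3 were at -0.03 for Ctbp1, which did not pass, and -0.20 for Ctbp2, which fell, both named after their values were seen. Of 8 genes of the ERK5 and MEF2 route, which induces Klf2 and Klf4, 7 were tested, with 2 higher, 3 lower and a median of -0.12. The kinase genes Map2k5 (0.28) and Map3k3 (0.26) were higher. Both lost the edgeR call without replicate 1 with FGF2 (0.19 and 0.26) and without replicate 1 without FGF2 (0.20 and 0.27), and Map3k3 also without replicate 2 with FGF2 (0.25) and replicate 2 without FGF2 (0.24). Mef2d and Mef2a were lower by edgeR (-0.38 and -0.32). Mapk7, the gene of ERK5 itself, did not pass (-0.20) and was named after its values were seen. The neuronal markers were lower in the same libraries, and the part of this in the falls of Mef2d and Mef2a was not tested.

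For the hormone inputs of Klf9 and Klf15, 12 receptor, coregulator and thyroid hormone handling genes were tested, with 1 higher, 3 lower and a median log2 fold change of -0.04. Over all tested genes, beside which both lists of this paragraph stand, 20.7% were higher and 19.9% lower. The glucocorticoid receptor gene Nr3c1 rose by 0.37, while Dio2, which makes active thyroid hormone, and the thyroid hormone receptor gene Thra fell (-0.65 and -0.36). The part of the changed cell type markers in these changes was not tested. With GC and length offsets 4 of the 12 genes were higher, and 3 were without replicate 2 with FGF2. Of the 13 genes known to respond to these hormones 12 were tested, with 6 higher, 2 lower and a median of 0.33. Hr, a thyroid hormone induced corepressor, rose by 1.92 and Pdk4, an inhibitor of glucose oxidation, by 1.12. Ddit4 and Errfi1 were the 2 genes of this list that fell in edgeR (-0.46 and -0.41). Neither was called by DESeq2 (adjusted p = 7.56e-02 and 1.48e-01), and Errfi1 did not pass without replicate 1 without FGF2 (-0.38). Klf9, itself a hormone target, was at -0.18 and Klf15 at 0.29, neither past the threshold.

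For the TGF-beta input of Klf10, 12 genes were tested, with 7 higher, 0 lower and a median log2 fold change of 0.34. Tgif1, a homeobox repressor of SMAD activity, rose by 1.24 and Smad3, which carries the signal to the nucleus, by 0.76. With GC and length offsets 2 of the 12 genes passed as lower, as did 1 without replicate 2 with FGF2 and 1 without replicate 2 without FGF2. This list and that of the KLF targets below stood beside 20.7% higher and 19.9% lower calls over all tested genes. Of 13 genes that are known targets of KLFs 10 were tested, with 1 higher, 4 lower and a median of -0.20. Cdkn1b, a cell cycle inhibitor, rose by 0.27, a call lost without replicate 1 without FGF2 (0.20). The axon growth and adhesion gene L1cam fell by 0.65 and Prodh, a proline enzyme gene, was lower (-0.43), which was not called without replicate 2 with FGF2 (-0.29) or without replicate 2 without FGF2 (-0.40). Of the list, 2 genes were higher without replicate 1 with FGF2 and 0 without replicate 1 without FGF2, and 2 were lower without replicate 2 with FGF2. L1cam is a neuronal gene, and the neuronal markers were lower in the same libraries. The part of this in its fall was not tested.

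**Figure D4:**
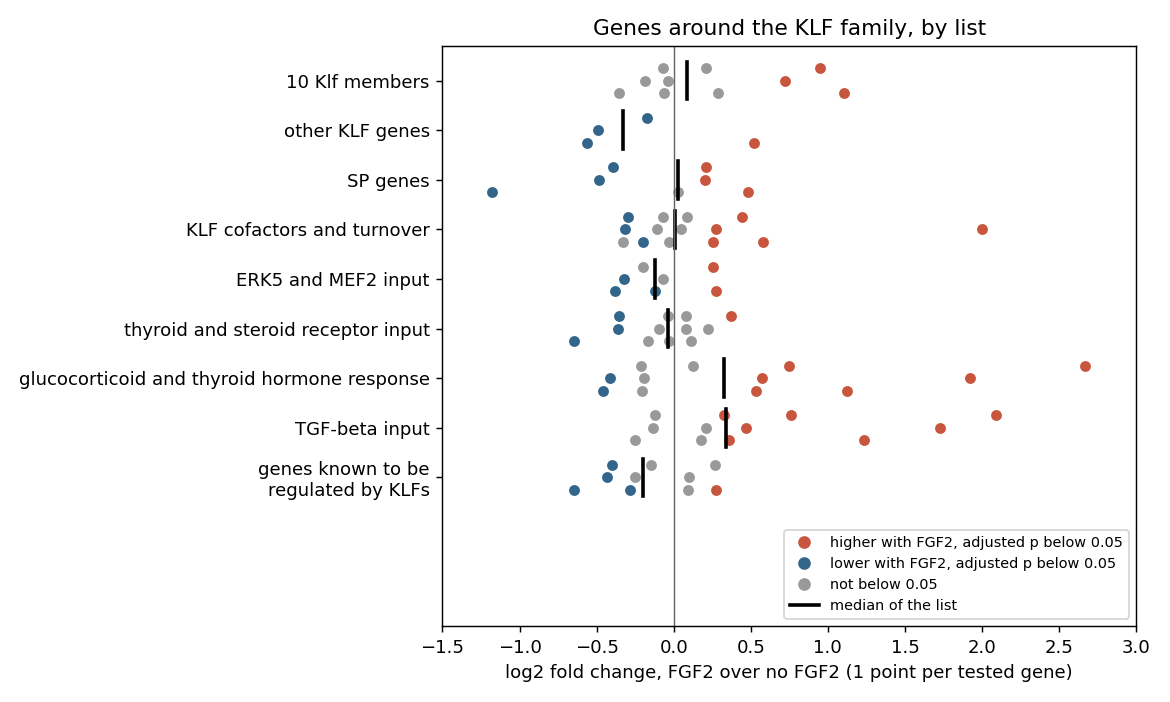
Log2 fold change between cultures with and without FGF2 (horizontal axis) of each tested gene (points) in the 10 KLF genes and 8 lists around them, with the median of each list as a black line. Red and blue points passed edgeR's adjusted p of 0.05 as higher and lower. The medians run from -0.33 for the other KLF genes to 0.34 for the TGF-beta input, and most lists hold points on both sides of 0.

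The changes of the 3 genes that rose varied little with the treatment of the counts. Over 8 other scalings, filters, tools and offsets, and in both fits with the replicate block, the log2 fold change was between 0.69 and 0.73 for Klf3, between 0.84 and 0.95 for Klf6 and between 1.05 and 1.11 for Klf10. With each library left out in turn it was between 0.69 and 0.74, between 0.89 and 0.99 and between 1.05 and 1.15, and all of these fits passed. Of the members that did not pass, Klf15 and Klf13 kept their direction and did not pass in any of these fits.

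**Figure D5:**
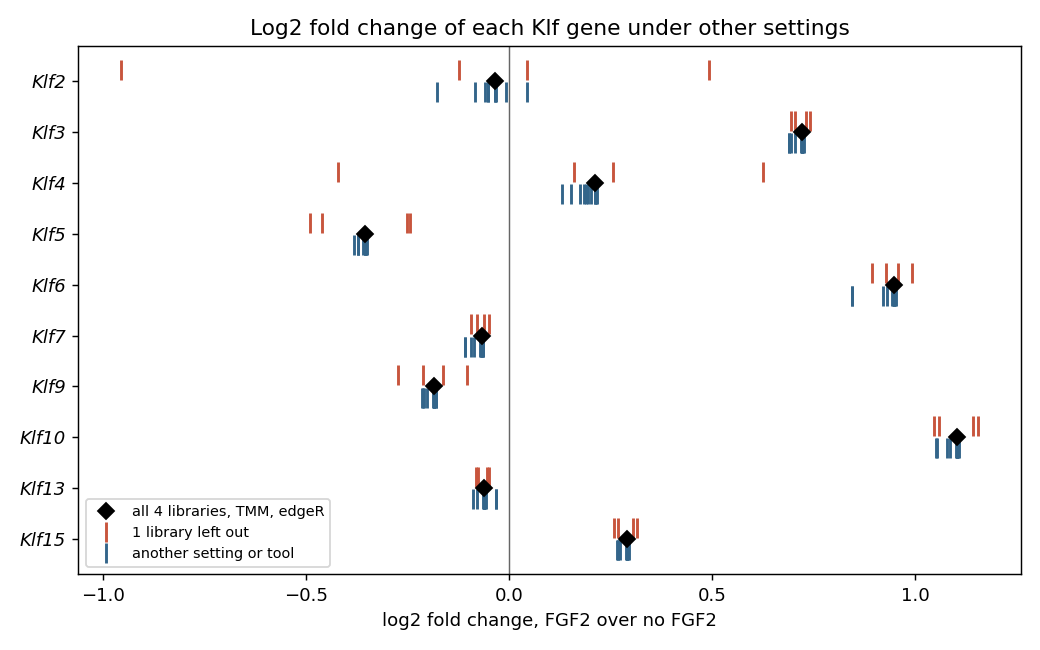
Log2 fold change of each KLF gene (horizontal axis) with all 4 libraries, TMM scaling and edgeR (black diamonds), with 1 library left out (red ticks) and under another setting or tool (blue ticks). The ticks of Klf3, Klf6 and Klf10 stay close to their diamonds, whereas leaving out 1 library with FGF2 moves Klf2 between -0.96 and 0.49 and Klf4 between -0.42 and 0.63.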

How the data were processed

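The authors mapped the reads of 4 total RNA libraries to mm10 with HISAT2 2.1.0, kept reads of high mapping quality and counted them per gene with HTSeq 0.11.2, per the labels and the methods, and they deposited the raw counts. The annotation release is not given in the sources used here. A quality filter of this kind drops reads that map to several places, and no transcript of a member shared 100 bases at 95% identity with another gene apart from its antisense neighbours (BLAST 2.17.0). Names, places and lengths came from GENCODE M21 (55240 of 55421 genes matched). The 5 tally entries were left out, with 43.2% to 45.9% of the tallied read pairs in no feature and 1.47% to 1.76% ambiguous.

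The counts were tested with edgeR 4.0.16 in R 4.3.3 (TMM, expression filter by group, robust quasi-likelihood, no covariate), with Benjamini-Hochberg adjustment over 17144 genes, and the fit was tested on simulated data. The biological coefficient of variation was 3.90%. Replicates differed by more than sampling noise (chi-square per degree of freedom 2.28 with FGF2 and 1.76 without). Alternatives were scaling by RLE, by upper quartile or by total count, no filter, at least 10 counts in every library, DESeq2 1.42.0, limma-voom (limma 3.58.1), the replicate number as a block, GC and length offsets (lowess, span 0.3) without and with the block, each library left out, and an adjusted p of 0.01. List counts under these alternatives were added after seeing the data. The text names every KLF and SP gene, from each other list up to 2 genes that rose most and 2 that fell most among those past an adjusted p of 0.05 with a mean of at least 5 CPM, and from each marker list the 2 with the highest mean CPM. One gene that this rule takes is not reported here. The members, lists and rules were chosen with earlier results of these data known.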

Additional observations from a re-analysis of the deposited data

How the results depend on the processing

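DESeq2 called 4007 genes against 6949 with edgeR. The number of members called lower was 0 with TMM, 1 with upper quartile scaling (Klf5), 3 with GC and length offsets (Klf5, Klf7 and Klf9) and 2 with these offsets and the replicate block (Klf5 and Klf9), and it lay between 0 and 1 with each library left out. The number called higher was 3 in every one of these fits. Klf2 changed sign with GC and length offsets (0.043), and with each library left out Klf2 lay between -0.96 and 0.49, Klf4 between -0.42 and 0.63 and Sp2 between -0.13 and 0.18, and the cause was not tested beyond the counts in those libraries. No source says whether the replicate numbers pair the libraries. The difference between replicates 1 and 2 correlated at r = 0.002 between the groups over genes. This shows no large shared replicate effect over all genes but cannot show how the libraries were prepared. With the replicate block 6814 genes, 3 members higher and 0 lower were called. Of 46 other named genes 30 kept their side of the threshold under all alternatives and 16 lost the call under 1 or more, most with DESeq2, while with each library left out 33 kept both sign and call, 12 lost the call, and Sp2, which was not called in any of these fits, changed sign. In the lists, counts that moved clearly were, with DESeq2, 0 other KLF genes higher and 0 lower, 1 SP gene higher and 1 lower, 2 cofactor genes higher, 0 ERK5 and MEF2 genes higher, 0 hormone response genes lower, 2 KLF targets lower, 2 microglial genes higher, 3 proliferation genes lower, and 0 endothelial and 0 epithelial genes lower. With GC and length offsets 1 SP gene and 4 receptor genes were higher and 2 TGF-beta genes lower. With at least 10 counts in every library 2 receptor genes and 0 endothelial genes were higher, and 1 fibroblast and mural gene and 0 epithelial genes lower. At an adjusted p of 0.01, 0 ERK5 and MEF2 genes and 2 microglial genes were higher and 0 endothelial and 0 epithelial genes lower. The endothelial gene called lower, Kdr, was also lost with no filter, limma-voom and the replicate block, without and with the offsets. Levels near the 3-count limit, as in Klf2, allow no direction, and with 2 libraries of unknown origin in each group the spread between cultures is not measured.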
